A study of Mus musculus with 20 samples.

Results

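The glutathione transferase (Gst), UDP-glucuronosyltransferase (Ugt) and cytosolic sulfotransferase (Sult) genes of the mouse kidney were followed through acute loss of Fh1, the gene of the mitochondrial enzyme fumarate hydratase. Members were taken by gene symbol alone (Gst classes a, k, m, o, p, t and z, Ugt families 1, 2, 3 and 8, and every Sult), which gave 61 of 24421 symbols in the count table, namely 21 Gst, 21 Ugt and 19 Sult genes. The 20 kidney RNA-seq libraries formed 4 groups of 5: Fh1-/- at day 10, Fh1+/+ at day 10, Fh1-/- at day 5 and Fh1+/+ at day 5 after induction. Fh1-/- mice carried loxP-flanked exons 3 and 4 of Fh1, littermate Fh1+/+ controls did not, and both genotypes carried a tamoxifen-inducible Cre (Cre-ERT2) under the ubiquitous Rosa26 promoter. All mice were of mixed C57BL/6 129/SvJ background, received 3 intraperitoneal injections of 2 mg tamoxifen in corn oil at 12 weeks of age, and were of both sexes, and the labels give no sex for any library. Recombination was therefore not restricted to a renal cell type, and RNA came from pieces of frozen kidney tissue and not from sorted cells. The labels number replicates and name no animal, and the p-values therefore describe library-to-library spread only, which may be technical. Because these are bulk samples, fewer cells of a type and less RNA per cell cannot be told apart.

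These 3 enzyme families carry out the conjugation phase of xenobiotic and hormone metabolism. Glutathione transferases join the thiol of glutathione to electrophiles, glucuronosyltransferases attach a sugar from a UDP-sugar donor to steroids, bilirubin and drugs in the endoplasmic reticulum, and cytosolic sulfotransferases transfer sulfate from the activated donor PAPS to phenols, amines and sterols. In the kidney these enzymes are mainly known from the proximal tubule, and many alpha and mu class Gst genes are known targets of the oxidant-responsive factor NRF2. Fumarate is itself a thiol-reactive electrophile, and glutathione is among the thiols it is known to modify. Several rodent Ugt2b and Gst genes are known to differ between male and female animals.

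Library totals ranged from 16654829 to 25001294 counts. Levels are given as CPM, counts scaled to library size by TMM, and log2 fold changes come from edgeR's quasi-likelihood test on the counts. On the main axis of variation of log2 CPM (42.7% of variance) Fh1-/- day 10 replicates 1 and 3 lay at -125 and -128 and the other 18 libraries between -30.2 and 31.4. The Fh1 count does not check the genotype labels, since the deleted exons are 288 of the 2636 bases (10.9%) of its transcript: it was 249 to 421 CPM in Fh1-/- and 224 to 258 CPM in Fh1+/+ libraries at day 10, and 199.7 to 239 CPM against 219 to 265 CPM at day 5. Fh1-/- below means libraries labelled so. Summed Ddx3y, Eif2s3y, Kdm5d and Uty, all encoded on the Y chromosome, fell into separate ranges of 98.1 to 139 CPM in 12 libraries, called Y-high here, and 0.306 to 1.03 CPM in the other 8, called Y-low. Xist, transcribed from the inactive X, was at 0.155 to 1.12 CPM in Y-high and 261 to 360.3 CPM in Y-low libraries. The Y-low libraries were replicates 1, 3 and 5 of Fh1-/- day 10, 2 and 3 of Fh1+/+ day 10, 2 and 5 of Fh1-/- day 5 and 1 of Fh1+/+ day 5. These are measured properties of libraries and not groups of the study. Proximal tubule markers were present in all libraries (13 of 13 read), and adrenal cortex markers summed to at most 11.2 CPM.

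Each family had a few abundant members and several that were barely read. Among Gst genes the highest mean over the 20 libraries was that of Gstm1, a mu class enzyme (698 CPM), followed by Gstz1, the maleylacetoacetate isomerase of tyrosine breakdown (380.3 CPM), and Gstt2, of the theta class (276 CPM). Ugt3a2, whose human counterpart uses UDP-glucose and UDP-xylose, had the highest mean over the 20 libraries in the Ugt family (1442 CPM), although in Y-low libraries Ugt1a2 and Ugt1a7c had higher medians (1684 and 1457 CPM, against 1089 CPM for Ugt3a2), and Sult1d1, a catecholamine sulfotransferase that is a pseudogene in humans, led the sulfotransferases (966 CPM) far above Sult1c2 (77.4 CPM) and the phenol sulfotransferase Sult1a1 (38.7 CPM). Of the reads in the Ugt1a2 and Ugt1a7c rows, 86.7% and 85.3% are shared by all Ugt1a rows, so these medians are not those of separate genes. Per kilobase of exon, mean levels were 474 CPM for Gstm1, 465 for Ugt3a2, 393 for Sult1d1, 156 for Ugt2b37, 74.7 for Gstz1 and 25.7 for Sult1a1. A filter on low counts left 40 members tested at day 10 (18 Gst, 16 Ugt and 6 Sult), 39 at day 5 and 41 over all libraries.

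Members under the filter were mostly sulfotransferases. Sult3a1, Sult2a2, Sult2a5, Sult2a6 and Sult2a7, of which the Sult2a genes belong to the hydroxysteroid sulfotransferase cluster, had 0 counts in all 20 libraries, which allows a level of up to 0.0079 CPM over the series by counting error alone. Sult1c1, Sult2a4, Ugt2a1 and Ugt2a2 had 1 count each, Sult2a1 had 2, Ugt2b1 had 4, Sult2a8 had 6, Ugt2b36 had 20, Gstt4 had 21, Sult2a3 had 45, Ugt2b35 had 58, Sult6b1 had 94 and Sult4a1, of neurons, had 115 counts in total. Gstp2 had 199 counts and passed only over all libraries, and 54.3% of its 50-base words occur in other genes, mainly Gstp1. Gsta1 and the oestrogen sulfotransferase Sult1e1 had 151 and 75 counts. Gsta1 was read at 2.88, 0.113, 2.99, 0.168 and 0.135 CPM in Fh1-/- replicates 1 to 5 at day 10, against at most 0.459 CPM in every other library. Sult1e1 was read at 1.9, 0.225, 1.14, 0.28 and 0.045 CPM in the same 5 libraries, against at most 0.503 CPM elsewhere. Both were thus highest in Fh1-/- day 10 replicates 1 and 3, the libraries that stood apart, and neither was tested. Gsta1 shares 90.5% of its 50-base words with other genes, mainly Gm3776, so its reads are uncertain.

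By edgeR no member passed the test between the genotypes at day 10. A gene was called at an adjusted p under 0.01 and an absolute log2 fold change over 0.58, and edgeR called 0 of 40 members, against 0.0557% of all genes tested (8 of 14360). At an unadjusted p under 0.05, 4 members were higher and 4 lower in Fh1-/- kidneys, against 2167 higher and 1704 lower of all 14360 genes. With DESeq2, 3 members passed (7.5%), against 5.54% of all genes: Sult1a1 was higher, and Sult1c2 and Gstk1 were lower. A joint fit of all 20 libraries called Sult1a1 and Sult1c2 (4.88% of members, against 5.61% of all genes). A looser threshold (adjusted p under 0.05 with no fold) took in only Sult1a1 (2.5%, against 2.83% of all genes). By edgeR, 8 of 18 Gst, 10 of 16 Ugt and 4 of 6 Sult genes had a fold change above 0, with medians of -0.065, 0.12 and 0.44, against -0.00073 over all genes. The 8 Ugt1a rows, which repeat the same reads, are among the 10 Ugt genes above 0. With a term for Y-high or Y-low in the fit (the Y-linked term) 8 Gst, 4 Ugt and 3 Sult genes were above 0, with medians of -0.088, -0.024 and 0.14.

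**Figure D1:**
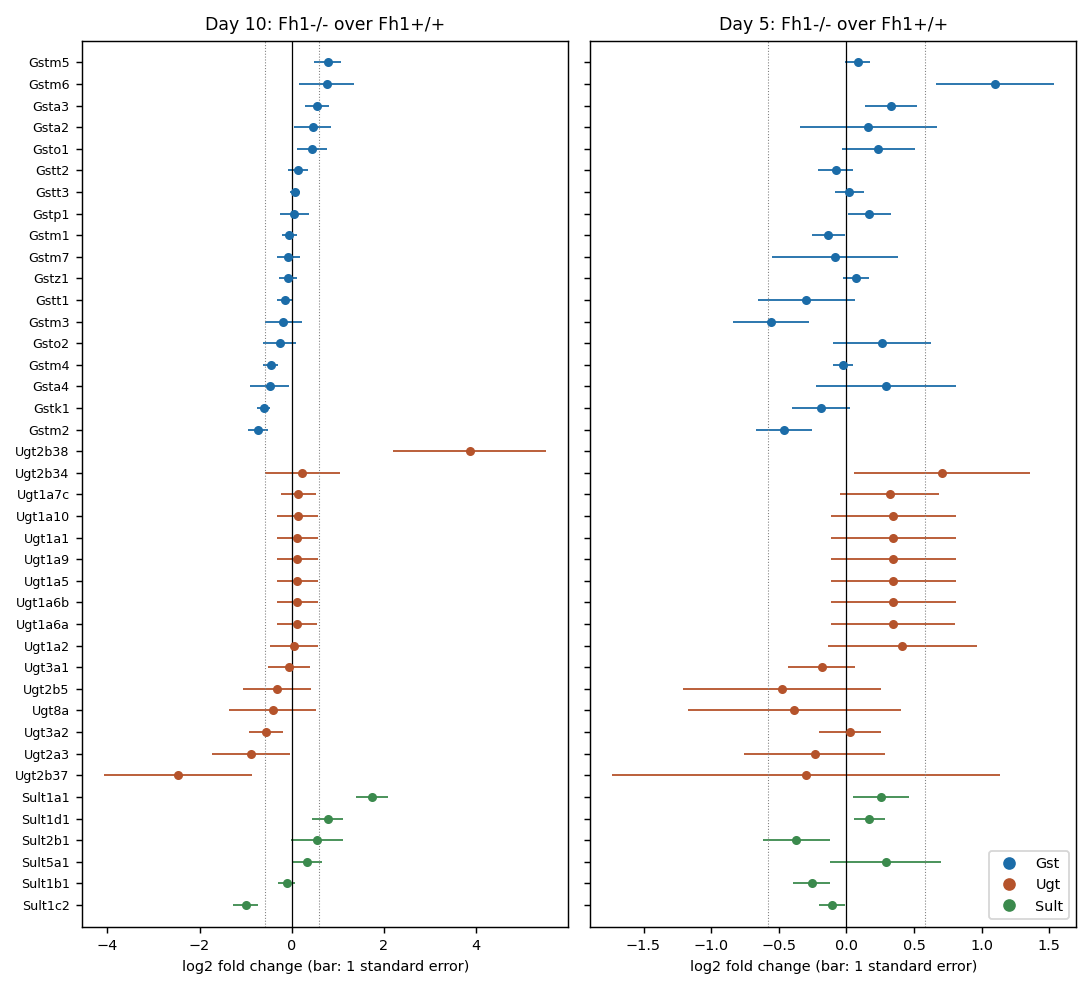
Log2 fold change of Fh1-/- over Fh1+/+ for each tested member at day 10 (left) and day 5 (right), coloured by family. Horizontal bars are 1 standard error and dotted lines mark the fold threshold of 0.58. At day 10 Sult1a1 (1.74) and Sult1c2 (-1.001) lie on opposite sides of 0 with short bars, Ugt2b38 (3.86) and Ugt2b37 (-2.47) have long ones, and Ugt2b38 was not tested at day 5.

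Sult1a1 (chr7:126672865-126676432, minus strand, GRCm38) showed the clearest difference among the members. It was at 105, 50.9, 88.6, 51.9 and 129 CPM in Fh1-/- replicates 1 to 5 at day 10, against 33.1, 22.1, 38.6, 19.4 and 12.7 CPM in Fh1+/+ replicates 1 to 5. The lowest Fh1-/- library lay above the highest Fh1+/+ library, and Sult1a1 was the only member of 40 tested without overlap (7.85% of all genes had none). The mean was 85.1 ± 34.1 CPM in Fh1-/- and 25.2 ± 10.5 CPM in Fh1+/+ kidneys (SD, n = 5 each), which gave a log2 fold change of 1.74 (SE 0.35, edgeR adjusted p = 0.0376, DESeq2 adjusted p = 8.41e-05). Over the 25 other settings tried the fold change stayed between 1.22 and 2.09, with adjusted p between 8.41e-05 and 0.109, and it passed with DESeq2, in the joint fit, within Y-low libraries and under the looser threshold. Within Y-high libraries it was 1.22 (edgeR adjusted p = 0.0427) and within Y-low libraries 1.83 (edgeR adjusted p = 0.00256), a difference of -0.61 that did not pass (edgeR adjusted p = 0.378). These values within a Y-linked level come from a fit of all 20 libraries with each group split by that level. Sult1a1 overlaps 61 exon bases of Sgf29 on the opposite strand, so reads of the pair could be mixed if strand was not used.

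Sult1c2, of the 1C sulfotransferase subfamily (chr17:53829637-53846339, minus strand), differed in the opposite direction. Its level in Fh1-/- replicates 1 to 5 at day 10 was 27, 72.2, 26.6, 44.6 and 32.9 CPM, against 101, 83.2, 62.9, 76.6 and 78.8 CPM in Fh1+/+ kidneys. Of the Fh1-/- libraries, replicate 2 reached into the Fh1+/+ range. The log2 fold change was -1.001 (SE 0.27, edgeR adjusted p = 0.0707, DESeq2 adjusted p = 0.00929). Without Fh1-/- replicate 2 it was -1.31 and passed (edgeR adjusted p = 0.00602), and without both replicates 1 and 3 it was -0.69 (edgeR adjusted p = 0.184), within an adjusted p range of 0.00169 to 0.184 over all settings.

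**Figure D2:**
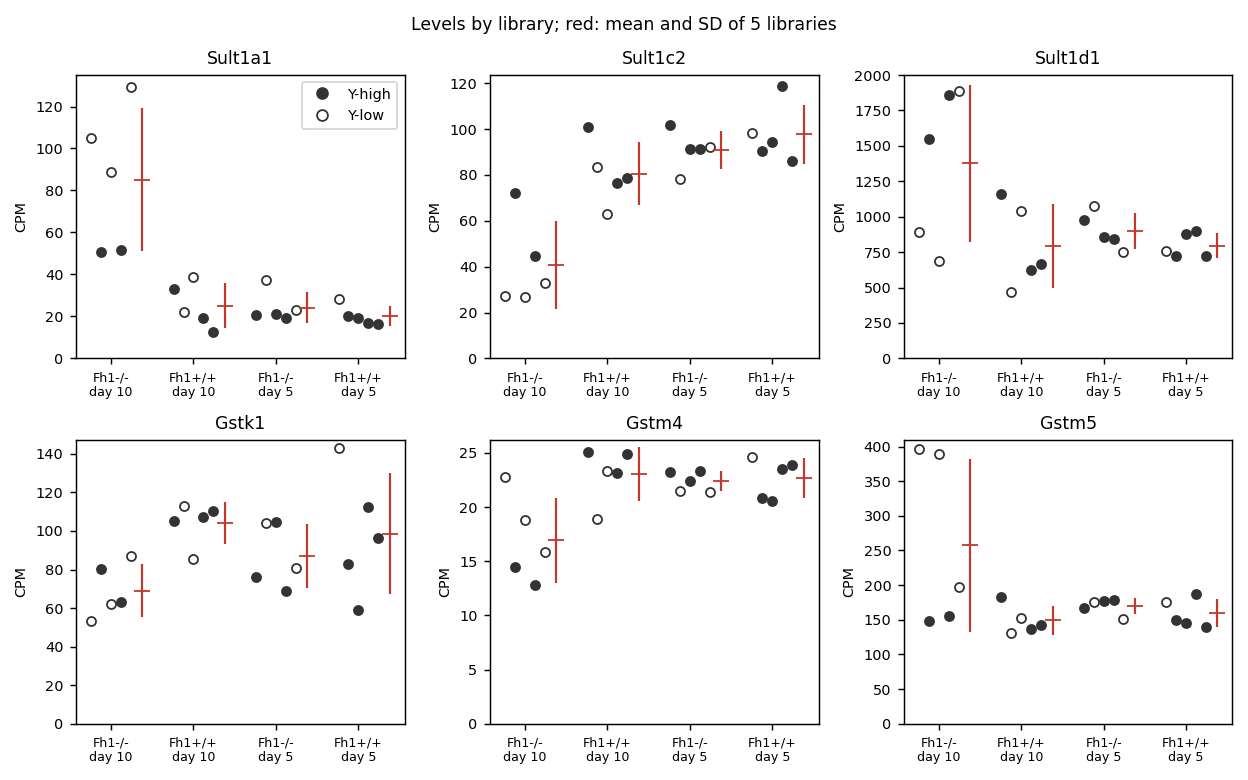
Level in CPM of 6 members in each library by group, with filled points for Y-high and open points for Y-low libraries; red marks give the mean and SD of 5 libraries. At day 10 the 5 Fh1-/- points of Sult1a1 (50.9 to 129 CPM) lie above all Fh1+/+ points, and the high Gstm5 mean in Fh1-/- kidneys comes from replicates 1 and 3 (396 and 389.6 CPM).

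Sult1d1 averaged 1376 ± 555 CPM in Fh1-/- and 793 ± 294 CPM in Fh1+/+ kidneys (SD, n = 5 each), and the groups overlapped. Its 5 Fh1-/- libraries were at 892, 1552, 689, 1859 and 1886 CPM, against 1162, 469, 1039, 627 and 669 CPM in Fh1+/+ libraries (log2 fold change 0.78, edgeR adjusted p = 0.175). The 2 lowest of these Fh1-/- values belong to replicates 1 and 3, and without both the fold change was 1.15. Sult2b1 and Sult5a1 had fold changes of 0.55 and 0.33, and Sult1b1, a thyroid hormone sulfotransferase, -0.11. None of these 4 passed with edgeR or DESeq2.

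Among Gst genes the lower values stood out for Gstk1, the mitochondrial and peroxisomal kappa class enzyme (chr6:42245935-42250447, plus strand). Gstk1 was at 53.3, 80.2, 61.9, 63.1 and 86.8 CPM in Fh1-/- replicates 1 to 5 at day 10, against 105, 113, 85.6, 107 and 110.1 CPM in Fh1+/+ kidneys. The groups touched at a single pair, Fh1-/- replicate 5 and Fh1+/+ replicate 3. The log2 fold change was -0.61 (SE 0.15, edgeR adjusted p = 0.0532, DESeq2 adjusted p = 0.00375). Over the alternatives it ranged from -0.69 to -0.20, and the adjusted p from 0.00375 to 0.81. The mu class genes Gstm2 (24.4 ± 4.51 CPM in Fh1-/- and 40.5 ± 13.2 CPM in Fh1+/+, SD, n = 5 each) and Gstm4 (16.9 ± 3.94 CPM and 23.1 ± 2.49 CPM) had log2 fold changes of -0.74 and -0.46 (edgeR adjusted p = 0.0782 and 0.121).

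Gstm5, another gene of the mu class cluster (chr3:107895821-107898686, plus strand), was at 396, 149, 389.6, 156 and 198 CPM in Fh1-/- replicates 1 to 5 at day 10, against 183, 130.4, 153, 136 and 142 CPM in Fh1+/+ kidneys. Replicates 1 and 3 alone were far above the others, and the remaining 3 libraries lay near the Fh1+/+ range. The log2 fold change of 0.78 (edgeR adjusted p = 0.136) was 0.17 without both and -0.037 within Y-high libraries, to which neither belongs. Gsta3, an alpha class enzyme known in mice for conjugating aflatoxin epoxide, was at 216, 110.3, 219, 117 and 142 CPM in Fh1-/- kidneys, against 85.8, 115, 154, 114 and 74.7 CPM in Fh1+/+ kidneys (fold change on the log2 scale 0.55, edgeR adjusted p = 0.192), and again replicates 1 and 3 were highest. The fold change of Gsto1, an omega class thioltransferase, was 0.43, that of Gstm1 -0.053 and that of Gstp1, the pi class enzyme, 0.052. Without both replicates Gstp1 was at -0.60.

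Sult1a1 had the smallest edgeR p of the members between the genotypes at day 10, although edgeR did not call it. NRF2, whose targets were also read, is known to act through the antioxidant response core TGACNNNGC. The promoters of Sult1a1 and of the 3 members whose window holds this core are therefore shown. Each runs 5' to 3' on the gene's strand from 250 bases before to 50 bases after the RefSeq start (GRCm38.p6), and capitals mark the core.
Sult1a1: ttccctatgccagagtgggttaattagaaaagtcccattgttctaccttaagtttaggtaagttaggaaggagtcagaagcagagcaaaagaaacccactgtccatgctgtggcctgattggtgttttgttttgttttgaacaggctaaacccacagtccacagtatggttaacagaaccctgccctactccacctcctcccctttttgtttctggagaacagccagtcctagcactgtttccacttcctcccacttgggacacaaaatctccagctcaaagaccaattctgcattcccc
Gsta3: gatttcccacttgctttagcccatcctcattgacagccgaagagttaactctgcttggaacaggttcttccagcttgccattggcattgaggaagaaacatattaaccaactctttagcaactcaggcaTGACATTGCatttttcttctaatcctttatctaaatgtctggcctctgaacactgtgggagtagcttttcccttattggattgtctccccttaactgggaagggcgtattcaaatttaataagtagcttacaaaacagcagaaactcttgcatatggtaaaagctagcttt
Gstm5: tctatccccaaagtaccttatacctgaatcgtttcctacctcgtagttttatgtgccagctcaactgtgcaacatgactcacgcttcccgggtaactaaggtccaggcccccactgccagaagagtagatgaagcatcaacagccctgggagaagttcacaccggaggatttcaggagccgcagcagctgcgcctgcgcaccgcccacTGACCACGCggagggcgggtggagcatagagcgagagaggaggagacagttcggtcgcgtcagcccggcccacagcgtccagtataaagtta
Gstm7: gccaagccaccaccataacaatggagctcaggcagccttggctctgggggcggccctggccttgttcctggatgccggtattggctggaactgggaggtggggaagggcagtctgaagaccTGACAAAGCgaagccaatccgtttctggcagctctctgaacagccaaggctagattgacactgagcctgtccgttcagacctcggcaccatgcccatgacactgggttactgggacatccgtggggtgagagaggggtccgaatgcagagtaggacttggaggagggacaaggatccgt
The windows are chr7:126676369-126676668 on the minus strand for Sult1a1, chr1:21240335-21240634 on the plus strand for Gsta3, chr3:107895604-107895903 on the plus strand for Gstm5 and chr3:107931565-107931864 on the minus strand for Gstm7. Searched on both strands, the core began at -121 in Gsta3, -42 in Gstm5 and -129 in Gstm7, and was not among the letters of the Sult1a1 window. It occurred in 3 of 64 member promoters (4.69%), against 12.4% of 32851 promoters in the table. The dioxin response core GCGTG, through which the receptor AHR is known to act, occurred in 12 of 64 (18.8%), against 32.4%, and a match of it in Gstm5 overlaps the antioxidant core. For the STAT5 letters TTCNNNGAA the shares were 6.25% (4 of 64) and 8.3%. Promoters were found for 53 of the 61 members. At day 10 the fold changes of Gsta3 (0.55), Gstm5 (0.78) and Gstm7 (-0.076) did not share a direction, and a match is a description of the letters alone.

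Among Ugt genes the largest fold changes at day 10 belonged to neighbours on chromosome 5 with the widest spread. Ugt2b38, of the steroid-conjugating 2B subfamily, was at 62.1, 0, 60.1, 0.729 and 45.1 CPM in Fh1-/- replicates 1 to 5, against 0.0512, 0.416, 10.8, 0.0535 and 0.223 CPM in Fh1+/+ kidneys (fold change on the log2 scale 3.86, SE 1.66, edgeR adjusted p = 0.169). The 3 high Fh1-/- libraries were the Y-low ones, and the 10.8 CPM belonged to a Y-low Fh1+/+ library. Ugt2b37 was at 6.56, 119, 6.9, 148 and 3.78 CPM in Fh1-/- kidneys, against 401, 1.02, 1.55, 270.3 and 868 CPM in Fh1+/+ kidneys (fold change on the log2 scale -2.47, edgeR adjusted p = 0.325). Its values split by Y-linked level within each genotype, as described with the Y-high libraries. Ugt3a2 was at 486, 1637, 474, 1351 and 1129 CPM, against 1903, 931, 1249.9, 1367 and 1916 CPM (log2 fold change -0.56, edgeR adjusted p = 0.34), with the 2 lowest values in replicates 1 and 3, and its fold change was -0.10 without both. The 8 Ugt1a rows had fold changes near 0 (shared reads 0.12, edgeR adjusted p = 0.883).

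Summed levels of some cell type markers lay mostly lower in Fh1-/- libraries at day 10. Summed over 13 proximal tubule markers, Fh1-/- libraries were at 17469 to 37749 CPM (median 27804), against 33461 to 74714 CPM (median 52398) in Fh1+/+ libraries, and replicates 1 and 3 were the lowest. The sum also differed by Y-linked level. In Y-high libraries it was 27804 and 37749 CPM in Fh1-/- and 52398 to 74714 CPM in Fh1+/+ kidneys. In Y-low libraries it was 17469 to 30392 CPM in Fh1-/- and 33461 and 37498 CPM in Fh1+/+ kidneys. The median fold change of these markers was -0.67 with 2 of 13 above 0, and 0 of 13 were called. Leukocyte markers summed to 39.5 to 179 CPM in Fh1-/- and 162 to 263 CPM in Fh1+/+ kidneys. Endothelial markers summed to 57.3 to 252 CPM in Fh1-/- kidneys, lowest in replicates 1 and 3, against 212 to 396 CPM in Fh1+/+ kidneys. Markers of the thick ascending limb and distal tubule (8382 to 19179.9 CPM in Fh1-/- and 7771 to 14052 CPM in Fh1+/+), of the collecting duct (810.2 to 1534 and 784 to 1172 CPM) and of fat (37.3 to 309.6 and 54.1 to 217 CPM) overlapped between the genotypes. Liver markers, a possible other source of conjugation enzymes, were at 33.6 to 71.2 CPM in Fh1-/- and 39.2 to 76.4 CPM in Fh1+/+ kidneys. Their part in the member values was not tested.

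At day 5 no member differed by the test. EdgeR called 0 of 39 members, against 0.0347% of all genes, DESeq2 called 0 (0.215% of all genes), and 1 member was higher and 1 lower at unadjusted p below 0.05 (348 and 341 of all 14404 genes). Gstm6, a mu class gene, was at 1.59, 3.28, 0.86, 1.97 and 4.68 CPM in Fh1-/- replicates 1 to 5, against 1.74, 0.992, 1.14, 1.31 and 0.586 CPM in Fh1+/+ kidneys (fold change on the log2 scale 1.098, SE 0.44). Gstm2 averaged 23.7 ± 4.32 CPM in Fh1-/- and 32.5 ± 10.3 CPM in Fh1+/+ kidneys (SD, n = 5 each), which gave a log2 fold change of -0.46. The fold changes of the next 10 by p were -0.56 for Gstm3, -0.26 for Sult1b1, 0.33 for Gsta3, -0.37 for the sterol sulfotransferase Sult2b1, 0.17 for Sult1d1, 0.26 for Sult1a1, -0.11 for Sult1c2, -0.13 for Gstm1, 0.17 for Gstp1 and 0.70 for Ugt2b34. Each of these 12 had an adjusted p of 1 from edgeR, and no member was without overlap (0.909% of all genes were). Sult1a1 was at 24.2 ± 7.5 CPM in Fh1-/- and 20.2 ± 4.74 CPM in Fh1+/+ kidneys at day 5 (SD, n = 5 each), and Sult1c2 at 90.9 ± 8.27 CPM and 97.6 ± 12.8 CPM.

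The genotype effect on Sult1a1 and Sult1c2 was larger at day 10 than at day 5, although not by enough to pass. EdgeR on all 20 libraries called 0 of 41 members for the difference between the days, against 0.0335% of all genes, DESeq2 called 0 (1.82% of all genes), and 2 members were above 0 and 2 below at unadjusted p below 0.05 (1756 and 1254 of all 14934 genes). The difference was 1.48 for Sult1a1 (SE 0.42, edgeR adjusted p = 0.0799) and -0.90 for Sult1c2 (SE 0.30, edgeR adjusted p = 0.117). With the Y-linked level as a term these were 1.42 and -0.94 (edgeR adjusted p = 0.0181 and 0.0418), and over all settings the adjusted p ranged from 0.0181 to 0.186 for Sult1a1 and from 0.00246 to 0.306 for Sult1c2. Sult1c2 passed without Fh1-/- day 10 replicate 2, with a difference of -1.21.

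Between day 10 and day 5 in Fh1-/- kidneys the same 2 sulfotransferases led. EdgeR called 0 of 41 members, against 0.576% of all genes, and at unadjusted p below 0.05 it gave 2 higher and 2 lower, against 2543 higher and 2044 lower of all 14235 genes. The fold change of day 10 over day 5 was 1.80 for Sult1a1 (SE 0.30, edgeR adjusted p = 0.0114) and -1.18 for Sult1c2 (SE 0.26, edgeR adjusted p = 0.0239). DESeq2 called both (adjusted p = 5.23e-07 and 0.000461), against 9% of all genes, as did edgeR with the Y-linked level as a term (1.57 and -1.15, adjusted p = 0.0023 and 0.00921), against 2.1%. Limma-voom called Gstm4 beside both sulfotransferases, 3 members in all (7.32%, against 3.4% of all genes). The joint fit of all libraries called both sulfotransferases (8.66% of all genes), as did the looser threshold (11.6%). Both together are 4.88% of the members tested. That is under the share of all genes with DESeq2, the joint fit and the looser threshold, and over it with the Y-linked term. Over all settings the adjusted p of Sult1a1 ranged from 5.23e-07 to 0.0597 and that of Sult1c2 from 0.000461 to 0.068. Gsta3 (0.69), Gstm4 (-0.42) and Sult1d1 (0.59) followed and passed with neither DESeq2 nor the Y-linked term. In Fh1+/+ kidneys edgeR and DESeq2 called 0 of 39 members and 0% of all genes between the days, with 1 member higher and 1 lower at unadjusted p below 0.05 (288 and 287 of all 14501 genes). Sult1a1 had a fold change of 0.32 there, Sult1c2 -0.28, Gsta3 0.47 and Ugt2a3 -1.19 (edgeR adjusted p = 0.948 for Gsta3 and Ugt2a3).

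The widest variation among members followed the Y-linked level. In Fh1+/+ kidneys, over both days, 7 Y-high libraries were set against 3 Y-low libraries, with the day in the model. EdgeR called 17 of 39 members (43.6%), against 4.65% of all genes tested (675 of 14501), with 3 higher in Y-high libraries (2.7% of all genes) and 14 lower (1.95% of all genes). Of the 17, 8 are Ugt1a rows that share most of their reads, and with these taken as a single locus the count was 10 of 32 loci (31.2%). All 3 genes higher in Y-high libraries were Ugt genes. Those lower were Ugt1a, Ugt2b34 and 5 Gst genes, and 0 of 6 tested Sult genes were called. DESeq2 called 21 (6.99% of all genes), adding Ugt3a2, Ugt2a3, Gsta3 and Ugt3a1. Over all 20 libraries 16 of 41 members (39%) had no overlap between Y-high and Y-low libraries, against 342 of 14934 genes (2.29%). The 8 Ugt1a rows are all among these 16, so a single locus is counted repeatedly there.

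**Figure D3:**
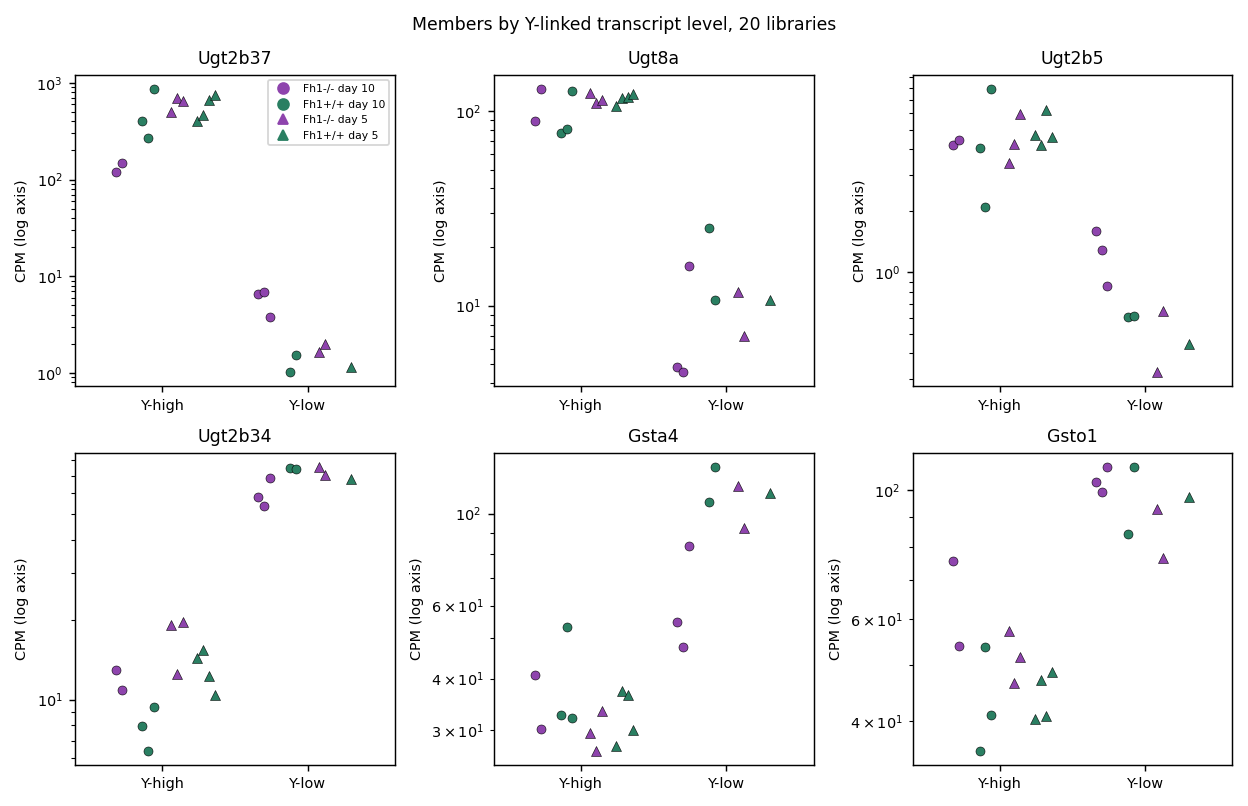
Level in CPM (log axis) of 6 members in the 12 Y-high (left) and 8 Y-low (right) libraries, with colour for genotype and shape for day. Ugt2b37 spans 119 to 868 CPM in Y-high and 1.02 to 6.9 CPM in Y-low libraries, and Ugt2b34 lies the other way, at 6.42 to 19.5 CPM in Y-high and 53.8 to 75.4 CPM in Y-low libraries.

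Ugt2b37 (chr5:87240493-87254804, minus strand) had the largest fold change among the called rows. It averaged 542 ± 216 CPM in Y-high (SD, n = 7) and 1.24 ± 0.277 CPM in Y-low Fh1+/+ libraries (SD, n = 3), a log2 fold change of 8.75 (SE 0.54, edgeR adjusted p = 4.35e-06). The day 5 Fh1-/- values of Ugt2b37 were 502, 697 and 642 CPM in the 3 Y-high and 1.66 and 1.99 CPM in the 2 Y-low libraries (8.38, edgeR adjusted p = 2.44e-07). At day 10 Fh1-/- kidneys had a narrower gap, with 119 and 148 CPM in the Y-high and 6.56, 6.9 and 3.78 CPM in the Y-low libraries (4.55, edgeR adjusted p = 0.0215). In that group the Y-high values were the lowest and the Y-low values the highest of their kind in the series. The genotype fold change at day 10 was thus -1.97 within Y-high (edgeR adjusted p = 0.0201) and 2.16 within Y-low libraries (edgeR adjusted p = 0.00853), and the difference between these was -4.12 (SE 0.67, edgeR adjusted p = 0.0406). Without Fh1-/- replicates 1 and 3, which are Y-low, the difference was -3.51 (edgeR adjusted p = 0.23). Over all settings the genotype effect on Ugt2b37 at day 10 had an adjusted p of 0.00853 to 0.919, and its Y-high over Y-low effect had 8.48e-88 (DESeq2) to 0.0215 (edgeR in Fh1-/- kidneys at day 10).

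Its neighbour Ugt2b38 did not follow the same split. At day 5 Ugt2b38 read 479.7, 0.0462, 0.0573, 0.986 and 29.9 CPM in Fh1-/- replicates 1 to 5, and at most 0.31 CPM in Fh1+/+ kidneys. Replicate 1, at 479.7 CPM, is Y-high and had 502 CPM of Ugt2b37 too, so a high level of Ugt2b38 occurred with a high and with a low level of Ugt2b37. Of the 50-base words of Ugt2b38 37.4% occur in other genes, and of those of Ugt2b37 18.3%, in both cases mainly Ugt2b5. This limits how well the rows are told apart, also for the low Ugt2b37 levels of Y-low libraries. Ugt2b5 itself averaged 4.82 ± 1.83 CPM in Y-high (SD, n = 7) and 0.552 ± 0.091 CPM in Y-low Fh1+/+ libraries (SD, n = 3; log2 fold change 3.11, edgeR adjusted p = 0.000987). The promoters of the 3 neighbours are shown because their levels differ so widely while the sequences are close relatives. In the same form as above, with capitals for bases that differ from Ugt2b37 in the alignment, they read as follows.
Ugt2b37: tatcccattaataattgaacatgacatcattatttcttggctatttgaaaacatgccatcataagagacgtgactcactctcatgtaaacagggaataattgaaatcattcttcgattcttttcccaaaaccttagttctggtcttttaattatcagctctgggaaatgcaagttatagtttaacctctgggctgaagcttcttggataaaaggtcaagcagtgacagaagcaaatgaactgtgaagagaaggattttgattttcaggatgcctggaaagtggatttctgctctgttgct
Ugt2b38: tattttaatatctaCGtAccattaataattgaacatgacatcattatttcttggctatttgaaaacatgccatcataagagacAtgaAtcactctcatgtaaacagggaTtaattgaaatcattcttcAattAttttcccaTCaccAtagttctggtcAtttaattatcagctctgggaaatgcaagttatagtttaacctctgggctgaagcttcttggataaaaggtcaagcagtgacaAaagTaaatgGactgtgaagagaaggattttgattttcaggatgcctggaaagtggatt
Ugt2b5: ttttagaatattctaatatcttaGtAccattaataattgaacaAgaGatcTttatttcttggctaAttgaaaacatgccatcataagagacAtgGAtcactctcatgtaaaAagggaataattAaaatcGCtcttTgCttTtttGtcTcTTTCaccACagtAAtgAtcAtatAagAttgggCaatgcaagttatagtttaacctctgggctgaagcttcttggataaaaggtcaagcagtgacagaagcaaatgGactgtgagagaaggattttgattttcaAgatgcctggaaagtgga
The windows are chr5:87254739-87255038 for Ugt2b37, chr5:87424154-87424453 for Ugt2b38 and chr5:87140291-87140590 for Ugt2b5, all on the minus strand of GRCm38.p6. Over aligned positions Ugt2b38 was identical to Ugt2b37 at 273 of 288 (94.8%) and Ugt2b5 at 246 of 287 (85.7%).

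Ugt2b34, of the same cluster (chr5:86889767-86906937, minus strand), ran in the opposite direction to Ugt2b37. It averaged 10.9 ± 3.29 CPM in Y-high (SD, n = 7) and 72.3 ± 3.91 CPM in Y-low Fh1+/+ libraries (SD, n = 3), a log2 fold change of -2.90 (edgeR adjusted p = 4.32e-06). The split held in Fh1-/- kidneys at day 5 (-2.10, edgeR adjusted p = 0.000112), and at day 10 the values were 12.9 and 10.8 CPM in Y-high and 57.9, 53.8 and 68.6 CPM in Y-low Fh1-/- libraries. Ugt8a (chr3:125865271-125938619, minus strand), which makes galactosylceramide rather than glucuronides, averaged 107 ± 20.2 CPM in Y-high (SD, n = 7) and 15.5 ± 8.26 CPM in Y-low Fh1+/+ libraries (SD, n = 3), a log2 fold change of 2.76 (edgeR adjusted p = 0.000264). In Fh1-/- kidneys at day 10 Ugt8a was at 88.8 and 130.1 CPM in Y-high and 4.84, 4.55 and 16 CPM in Y-low libraries, which do not overlap. Ugt3a2 (0.68), Ugt3a1 (0.69) and Ugt2a3 (1.37) had fold changes above 0 in Fh1+/+ libraries that did not pass (edgeR adjusted p = 0.0114, 0.0247 and 0.0146).

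The Ugt1a rows are alternative transcripts of a single locus on chromosome 1, each with an initial exon of its own spliced to 4 common exons (chr1:88215044-88215175, chr1:88215795-88215882, chr1:88216138-88216357 and chr1:88218127-88218997, GRCm38). The rows were split into the reads they share, taken as the lowest of the 8 rows in each library, and the reads above it. Shared reads made up 99.6% to 100% of 6 rows, 85.3% of Ugt1a7c and 86.7% of Ugt1a2, so most rows repeat 1 value. Shared reads were at 375 to 563 CPM in Y-high and 1326 to 1634 CPM in Y-low Fh1+/+ libraries, a log2 fold change of -1.74 (edgeR adjusted p = 1.15e-05). The reads above them in Ugt1a2 come from its own exon (chr1:88200601-88201500), and were at 0.447 to 2.78 CPM in Y-high and 326 to 395 CPM in Y-low Fh1+/+ libraries, a log2 fold change of -7.71 (SE 0.34, edgeR adjusted p = 2.17e-07). These ranges are far apart.

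**Figure D4:**
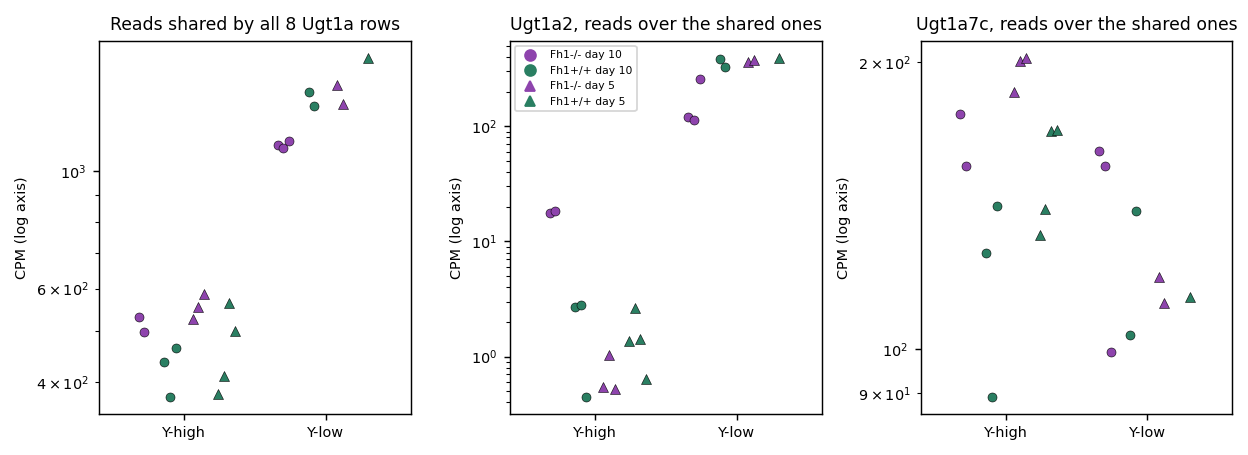
Reads shared by all 8 Ugt1a rows (left), reads of Ugt1a2 above them (middle) and reads of Ugt1a7c above them (right), in CPM on log axes, in Y-high and Y-low libraries. In the middle panel Fh1-/- day 10 libraries lie at 17.5 and 18.2 CPM in Y-high and 113 to 259 CPM in Y-low.

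In Fh1-/- kidneys at day 10 the reads specific to Ugt1a2 were at 17.5 and 18.2 CPM in the Y-high libraries, against 2.71, 2.78 and 0.447 CPM in the 3 Y-high Fh1+/+ libraries, and at 121, 113 and 259 CPM in the Y-low libraries, against 381 and 326 CPM in Y-low Fh1+/+ libraries. Over all libraries of day 10 the genotypes did not pass the test for these reads (-0.44, edgeR adjusted p = 0.864, and 0.83 and 0.541 with the Y-linked term), and the row was not tested within each Y-linked level. At day 5 they were at 0.522 to 1.03 CPM in Y-high Fh1-/- libraries, against 0.639 to 2.63 CPM in Y-high Fh1+/+ libraries. Reads above the shared ones in the row of Ugt1a1, the bilirubin-conjugating form, were fewer (log2 fold change of Y-high over Y-low in Fh1+/+ -3.44, edgeR adjusted p = 0.000152), and those of Ugt1a7c showed no such split (0.14, SE 0.17, edgeR adjusted p = 0.599). The bases particular to Ugt1a7c lie in its initial exon and in a longer last exon, which cannot be told apart here.

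The alpha, omega, theta and mu classes held the 5 Gst genes that were lower in Y-high Fh1+/+ libraries. Gsta4, which conjugates the lipid peroxidation product 4-hydroxynonenal, averaged 35.7 ± 8.52 CPM in Y-high (SD, n = 7) and 116 ± 11.9 CPM in Y-low libraries (SD, n = 3), a log2 fold change of -1.66 (edgeR adjusted p = 8.8e-05). Gsto1 was at 43.9 ± 6.15 CPM and 97.2 ± 12.7 CPM (-1.15, edgeR adjusted p = 0.000236), and Gsta2, an alpha class gene that shares 49.8% of its 50-base words mainly with Gsta1, at 59 ± 20.7 CPM and 169 ± 24.6 CPM (-1.49, edgeR adjusted p = 0.00208). Gstt1, a theta class enzyme, and Gstm7 had fold changes of -0.69 and -0.92 (edgeR adjusted p = 0.00138 and 0.00584). The abundant Gstm1, Gstz1 and Gstt2 had fold changes of 0.25, 0.33 and 0.52 and did not pass (edgeR adjusted p = 0.0642, 0.0783 and 0.0868). In Fh1-/- kidneys at day 10 the split was not seen for Gstm7, at 12.8 and 13.6 CPM in Y-high and 9.13, 8.74 and 16.4 CPM in Y-low libraries, nor for Gstt1 (128 and 119.8 CPM against 106, 122 and 157 CPM). These Y-low values are of replicates 1, 3 and 5 in that order, and replicates 1 and 3 are the libraries that stood apart. Replicate 5 lay above both Y-high libraries for both genes.

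**Figure D5:**
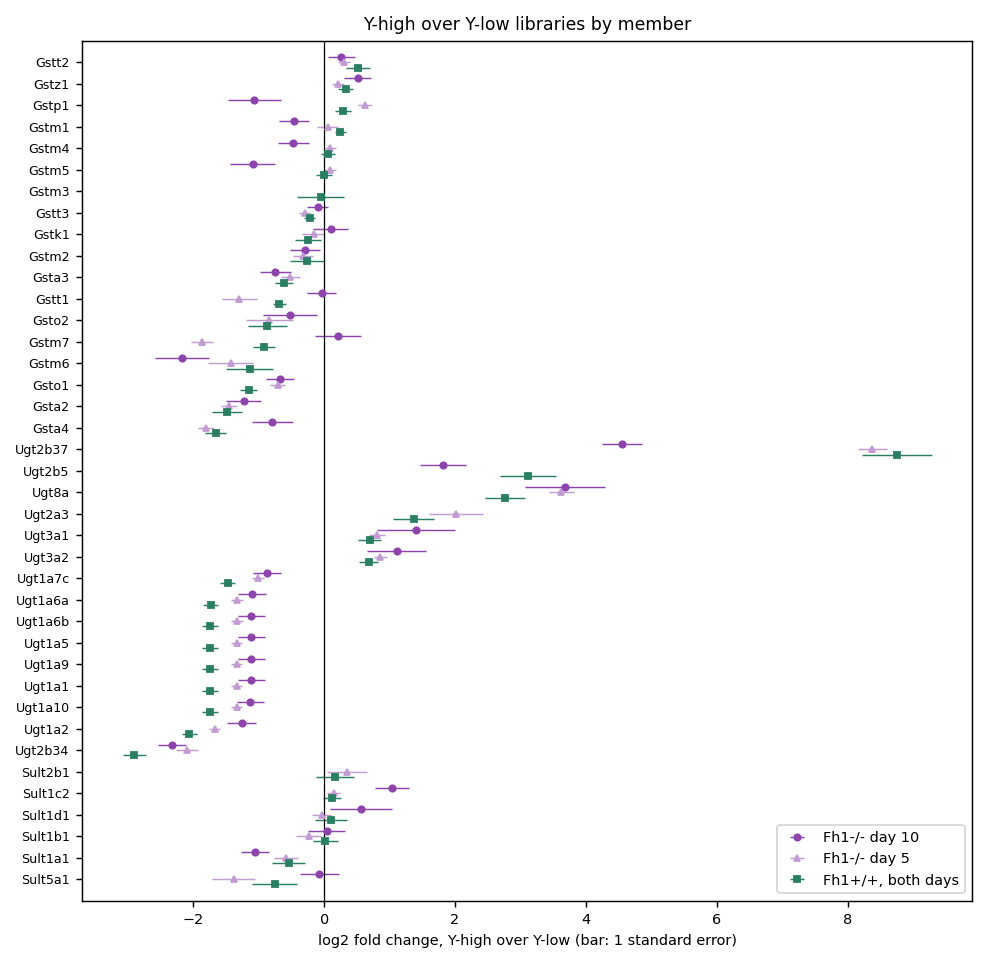
Log2 fold change of Y-high over Y-low libraries for each tested member, fitted in Fh1-/- kidneys at day 10, Fh1-/- kidneys at day 5 and Fh1+/+ kidneys of both days; bars are 1 standard error. Ugt2b37 (4.55, 8.38 and 8.75) and Ugt8a (3.68, 3.62 and 2.76) lie to the right in all 3 and Ugt2b34 (-2.33, -2.10 and -2.90) to the left.

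Fitted within each group, the split was called for 20 of 37 members in Fh1-/- kidneys at day 5 (8.75% of all genes), 0 of 36 in Fh1-/- kidneys at day 10 (0% of all genes, with 4 members higher and 17 lower at unadjusted p below 0.05 by edgeR) and 9 of 38 in Fh1+/+ kidneys at day 10 (0.227% of all genes). The 8 Ugt1a rows, which repeat mostly the same reads, count as separate members here. All genes were not counted at the unadjusted p. Fh1+/+ kidneys at day 5 hold a single Y-low library. Proximal tubule markers summed to 52398 to 79702 CPM in Y-high and 33461 to 40277 CPM in Y-low Fh1+/+ libraries, although their median fold change was -0.29 with 6 of 13 above 0. Of these 13, Kap, which is known to be androgen-regulated, Slc22a6, Slc22a8 and Slc7a13 were called. The part of composition in the member values was not tested.

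Genotype effects at day 10 were also taken within each Y-linked level, a choice made after the data were seen. They were contrasts in a fit of all 20 libraries with each group split by level, so their spread was estimated over both days. Within Y-high libraries (2 Fh1-/- and 3 Fh1+/+) 1 of 41 members was called, against 0.623% of all genes: Gstm4 fell by 0.85 on the log2 scale (edgeR adjusted p = 0.00711), at 14.5 and 12.8 CPM in Fh1-/-, against 25.1, 23.1 and 24.9 CPM in Fh1+/+ libraries. Within Y-low libraries (3 Fh1-/- and 2 Fh1+/+) 5 of 41 were called (12.2%), against 10.6% of all genes, a share near the background. These were Sult1a1 (1.83) and Sult1c2 (-1.34, edgeR adjusted p = 0.00169), Gstm5 (1.21, edgeR adjusted p = 0.00364), Ugt2b37 (2.16) and Ugt2a3 (-2.95, edgeR adjusted p = 0.00277). Without Fh1-/- replicates 1 and 3 a single Y-low Fh1-/- library remains, 0 members were called within Y-low libraries by edgeR (0.0722% of all genes, with 5 higher and 3 lower at unadjusted p below 0.05, and DESeq2 was not run for it), and Gstp1 (-0.84, edgeR adjusted p = 0.00674) joined Gstm4 within Y-high libraries (2.19% of all genes). For the difference between the levels edgeR called 0 members (0.0067% of all genes), with 14 above 0 and 7 below at unadjusted p below 0.05, and DESeq2 was not run for it. All genes were not counted at that unadjusted p, and Ugt1a rows that repeat mostly the same reads count as separate members. The 14 and 7 are therefore not read as a result about the members.

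The pathways around these enzymes were read from 9 gene lists, which were not summarised without Fh1-/- day 10 replicates 1 and 3. At day 10 edgeR called 0 of their 123 tested genes, with 31 higher and 19 lower at unadjusted p below 0.05, against 2167 and 1704 of all 14360 genes. Among 23 NRF2 targets outside the 3 families 17 had a fold change above 0 (median 0.57), with the sulfiredoxin gene Srxn1 at 2.37 (edgeR adjusted p = 0.071) and the haem oxygenase gene Hmox1 at 1.58 (edgeR adjusted p = 0.0708). Of 14 genes of glutathione synthesis and recycling 9 were above 0 (median 0.25), and Gclc, Gclm, Gsr and Slc7a11 are in both lists. The 14 were led by Glrx, glutaredoxin, at 2.00 and Gpx3, a secreted glutathione peroxidase, at 1.05 (edgeR adjusted p = 0.041 and 0.0415). Mgst1, the microsomal glutathione transferase outside the rule, averaged 543 ± 323 CPM in Fh1-/- and 93.1 ± 26.9 CPM in Fh1+/+ kidneys (SD, n = 5 each), which gave a log2 fold change of 2.53 (edgeR adjusted p = 0.0269), in a list of other glutathione enzymes with 7 of 10 above 0 (median 0.14).

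Among the remaining lists only the mercapturate pathway had a median far from 0. In the mercapturate pathway, which trims glutathione conjugates for excretion, 3 of 12 were above 0 (median -0.61), with the aminoacylase gene Acy3 at -1.81 and the aminopeptidase gene Anpep at -0.61 (edgeR adjusted p = 0.0852 and 0.0741). Among 15 genes of sulfate activation and supply 5 were above 0 (median -0.09). Papss1, which makes the sulfate donor PAPS, was at -0.72 and the sulfate transporter gene Slc13a1 at 1.65 (edgeR adjusted p = 0.0559 and 0.0484). Of 7 genes of UDP-glucuronate supply and deconjugation 2 were above 0 (median -0.09), and Miox, a proximal tubule oxygenase, was at -1.88 (edgeR adjusted p = 0.0732) and Gusb, the beta-glucuronidase, at -0.74. Export pumps (4 of 8 above 0, median -0.03), regulators (14 of 23, median 0.13) and phase I cytochrome P450 genes (7 of 16, median -0.03) had medians near that of all genes or slightly above. DESeq2 called 22 list genes at day 10 (5.54% of all genes), among them Srxn1, Hmox1, Glrx, Gpx3, Mgst1, Acy3, Papss1, Slc13a1, Miox and Gusb. At day 5 edgeR called 0 of 122, with 5 higher and 4 lower at unadjusted p below 0.05 (348 and 341 of all 14404 genes), DESeq2 called 1 (Slc13a1), and the NRF2 median was 0.00.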

How the data were processed

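The deposited table holds whole-number counts per gene symbol, which the authors made from stranded polyA RNA-seq with cutadapt, STAR 2.6.0c, Rsubread and GRCm38 with GENCODE annotation. The strand setting and the treatment of overlapping genes are not given in the sources used here. Counts were scaled by TMM, filtered with filterByExpr and fitted with edgeR 4.0.16 (quasi-likelihood test, Benjamini-Hochberg over all genes, R 4.3.3). Alternatives used DESeq2 1.42.0, limma 3.58.1, other scaling, filters and thresholds, left-out libraries, a replicate block and a Y-linked term. Effects within Y-linked levels came from a fit of all 20 libraries. They and the fits without replicates 1 and 3 of Fh1-/- day 10 together were added after seeing the data. Named were called members, up to 12 per genotype comparison and 6 for the Y-linked term by p, the 3 most abundant per family, and pathway genes that were called or among the 2 smallest p of their list. Members and lists were chosen with earlier results of these data known. Scripts were tested on simulated data. Gene positions are from GENCODE and promoters from RefSeq. A further marker list is not reported here.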

Additional observations from a re-analysis of the deposited data

Results flagged for a closer look

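A single library lay apart from the other 4 of its group, by Dixon's criterion at the 95% level, in 17 of 120 group values of 30 members (14.2%). The members were partly picked by the test for the Y-linked level in these same libraries, and Ugt1a rows repeat reads. The share therefore has no chance rate to be set against. Of the 17, 11 were Fh1+/+ day 5 replicate 1, the only Y-low library of its group. There Ugt1a2 was at 2029 CPM (others 381 to 564), Ugt1a7c at 1748 CPM (others 512 to 732), the exons shared by the Ugt1a rows at 1634 CPM (others 380.0 to 563), Gsta2 at 191 CPM (others 39.2 to 70), Gsta3 at 113 CPM (others 62.6 to 75.4), Gsta4 at 112 CPM (others 27.5 to 37.4), Gsto1 at 97.5 CPM (others 40.3 to 48.6), Ugt2b34 at 67.8 CPM (others 10.4 to 15.4) and Gstm7 at 18.5 CPM (others 6.86 to 9.23). In the same library Gstm1 (576 CPM, others 717 to 760.0) and Ugt8a (10.7 CPM, others 106 to 123) were lower.

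The other 6 single libraries were Ugt2b38 in Fh1-/- day 5 replicate 1 (479.7 CPM, others 0.0462 to 29.9), Ugt2b38 in Fh1+/+ day 10 replicate 3 (10.8 CPM, others 0.0512 to 0.416), Gstt2 in Fh1+/+ day 10 replicate 1 (446 CPM, others 189 to 249), Gstk1 in Fh1+/+ day 10 replicate 3 (85.6 CPM, others 105 to 113), Sult1a1 in Fh1-/- day 5 replicate 2 (37.4 CPM, others 19.1 to 23) and Gstp1 in Fh1+/+ day 5 replicate 4 (39.9 CPM, others 29.9 to 31.9).

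The genotype effect on Ugt2b37 at day 10 differed between Y-high and Y-low libraries by -4.12 on the log2 scale (edgeR adjusted p = 0.0406), and by -3.51 without Fh1-/- replicates 1 and 3 (edgeR adjusted p = 0.23).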

How the results depend on the processing

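For the genotype comparison at day 10 edgeR called 0 members and DESeq2 3. A joint fit of all 20 libraries called 2, and the looser threshold (adjusted p under 0.05, no fold) 1. Within Y-high libraries 1 was called, within Y-low libraries 5, and within Y-high libraries without Fh1-/- replicates 1 and 3 the count was 2. Leaving out single libraries gave 0 to 1, the 1 being Sult1c2 without Fh1-/- day 10 replicate 2. For the difference between the days single left-out libraries gave 0 to 1, and for the genotype comparison at day 5 and the day comparison in Fh1+/+ kidneys 0 throughout. For day 10 against day 5 in Fh1-/- kidneys DESeq2, the Y-linked term, the joint fit and the looser threshold called 2 each, limma-voom 3, and left-out libraries gave 0 to 2. For Y-high against Y-low in Fh1+/+ kidneys the counts were 9 in Fh1+/+ day 10 alone, 0 in Fh1-/- day 10 and 13 to 19 with a library left out, 13 being without Fh1+/+ day 5 replicate 1. Fold changes turned round for Gstm5 at day 10 within Y-high libraries (-0.037, and -0.018 without replicates 1 and 3), Ugt2b37 within Y-low libraries (2.16, and 1.57 without), Ugt3a2 within Y-low libraries without both (0.045), Gstm1 (0.11) and Gstp1 (-0.18) at day 5 within Y-low libraries, and Gstm7 for the Y-linked level in Fh1-/- day 10 (0.21). The causes were not tested. Replicate numbers did not pair the libraries (same-number correlations of -0.51 to 0.33, 2 of 10 best with their own). With the replicate block 0 members were called at day 10 and at day 5 and 14 for the Y-linked level. For the replicate block and for single left-out libraries the share over all genes was not taken, so these counts have no background. All counts for the Y-linked level in this section take each Ugt1a row as a member.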
